A study of Mus musculus with 2 samples.

Results

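CpG-dense tiles that were methylated in *Rex1*-low cells were described here, which are stretches of 2500 bp on the autosomes with at least 20 CpGs measured in both libraries and a mean methylation of at least 50% in the *Rex1*-low library. This rule gave 1285 tiles, out of 14467 tiles with as many CpGs and 158677 autosomal tiles with at least 3 CpGs. Dense CpGs in the mammalian genome mostly occur as CpG islands, which lie over gene starts and are usually free of methylation in embryonic stem cells (ESCs), whereas isolated CpGs elsewhere are mostly methylated. Islands inside genes or between genes, and the promoters of some genes that act in germ cells, are among the exceptions. Methyl groups are placed by Dnmt3a and Dnmt3b, copied at replication by Dnmt1, and removed with the help of the Tet enzymes.

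The data are reduced representation bisulfite sequencing (RRBS) of ESCs sorted by reporter fluorescence, with 1 *Rex1*-high and 1 *Rex1*-low library. Both came from the same Rex1-dGFP knock-in reporter line of E14 ESCs, of 129/Ola background, grown on gelatin with LIF and serum, so that both states carry the reporter and 1 cell line stands for them. RRBS cuts DNA with MspI and TaqI, sequences short fragments after bisulfite treatment and so favours CpG-rich DNA, and the share of calls that remain methylated at a CpG is its methylation level. The *Rex1*-high library held 60718476 calls and the *Rex1*-low library 61024229. Because each state has 1 library and the members were chosen on their *Rex1*-low level, differences are given as descriptions without a test, and the libraries cannot be told apart from the states.

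Most members could be given a position but no gene. The processing notes name the mouse build mm9, whereas the RefSeq tables at hand are of GRCm38.p6, so genes were located without coordinates of that assembly. The CpGs of each RefSeq promoter, from 250 bases before to 50 after an annotated start, were laid over the deposited positions, and a promoter counted as placed where at least 10 listed CpGs, and none outside the promoter's own CpGs, fell in its window at a single place on its chromosome. Of 13800 autosomal promoters with at least 10 CpGs, 8968 (65.0%) were placed, 8947 of 8950 neighbouring pairs of them were in the order of the reference, and 22 promoters matched when mirrored. Annotated starts placed in this way lay in 27 members, and 5 of their promoters are shown. In that of *Akap7*, whose window did not share the level of its tile, both CpGs measured in the printed bases lie in the next tile. Each is the 250 bases before the start, in the direction of the gene, as RefSeq gives it for GRCm38.p6, and capitals mark the CpGs measured in both libraries.
Tex101: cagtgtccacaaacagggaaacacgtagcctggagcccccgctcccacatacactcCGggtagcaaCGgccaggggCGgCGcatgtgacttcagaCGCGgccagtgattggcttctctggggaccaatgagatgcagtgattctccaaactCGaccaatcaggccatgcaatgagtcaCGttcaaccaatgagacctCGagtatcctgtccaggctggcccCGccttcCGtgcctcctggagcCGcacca
Rpl39l: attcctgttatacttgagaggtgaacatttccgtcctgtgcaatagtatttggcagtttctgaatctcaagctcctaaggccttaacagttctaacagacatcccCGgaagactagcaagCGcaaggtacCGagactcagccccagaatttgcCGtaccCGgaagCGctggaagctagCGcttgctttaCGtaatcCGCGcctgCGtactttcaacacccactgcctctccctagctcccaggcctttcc
Hormad1: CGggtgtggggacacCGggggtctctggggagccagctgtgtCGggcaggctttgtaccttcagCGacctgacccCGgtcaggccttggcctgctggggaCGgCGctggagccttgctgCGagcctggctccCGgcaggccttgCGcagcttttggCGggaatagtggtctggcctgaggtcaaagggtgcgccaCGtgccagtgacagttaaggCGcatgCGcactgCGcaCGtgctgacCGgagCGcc
Slc25a31: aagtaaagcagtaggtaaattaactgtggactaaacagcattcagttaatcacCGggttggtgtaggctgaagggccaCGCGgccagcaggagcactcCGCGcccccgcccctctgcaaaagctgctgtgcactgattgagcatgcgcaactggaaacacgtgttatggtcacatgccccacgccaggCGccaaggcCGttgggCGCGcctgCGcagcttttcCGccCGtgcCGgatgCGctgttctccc
Akap7: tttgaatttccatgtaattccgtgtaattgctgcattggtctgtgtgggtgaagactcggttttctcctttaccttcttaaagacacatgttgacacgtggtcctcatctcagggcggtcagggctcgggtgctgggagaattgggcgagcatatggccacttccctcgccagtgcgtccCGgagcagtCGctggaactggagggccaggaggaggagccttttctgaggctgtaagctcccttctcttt
In the positions of the deposited values these are chr7:25457071-25457320 (minus strand), chr16:10170072-10170321 (plus), chr3:95363350-95363599 (plus), chr3:40512544-40512793 (plus) and chr10:24919957-24920206 (minus). The sequence is that of the reference strain and not of the cells.

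In the *Rex1*-high library the members were at intermediate levels. Their median methylation was 45.5% there, with quartiles of 37.7% and 55.4%, and 75.5% in the *Rex1*-low library, which chose them, with quartiles of 62.7% and 84.1%. The *Rex1*-high levels ran from just under 20% to 79.7%. In the *Rex1*-high library 485 members (37.7%) were themselves at 50% or above, and 1 was at 20% or below. Every one of the 1285 was higher in the *Rex1*-low library, by 7.65 to 47.7 percentage points and a median of 26.9. A difference of at least 10 points was met by 1281 of them, which is 99.7%. The share was 82.6% over all autosomal tiles, 14% over CpG-dense tiles, 5.61% over dense tiles under 50% in *Rex1*-low cells and 94.2% over methylated tiles with 3 to 19 CpGs. A difference of at least 20 points was met by 1114 members (86.7%) and by 61.6%, 8.11%, 0.448% and 72% in the same order. A loss of at least 10 points in *Rex1*-low cells was found in 0 members and 0 dense tiles, in 0.244% of all tiles and in 0.0998% of methylated tiles with 3 to 19 CpGs. The *Rex1*-low level that chose the members is one side of this difference, so nothing is read from these counts. In placed promoters, where the letters are known, CpGs inside the sites of the RRBS enzymes read higher than their neighbours, as described at the end, and printed levels that include such CpGs may stand too high. Their part in the tile levels was not tested. The 13182 CpG-dense tiles under 50% in the *Rex1*-low library had medians of 13.6% and 15.5%, with a median difference of 1.95 points.

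**Figure D1:**
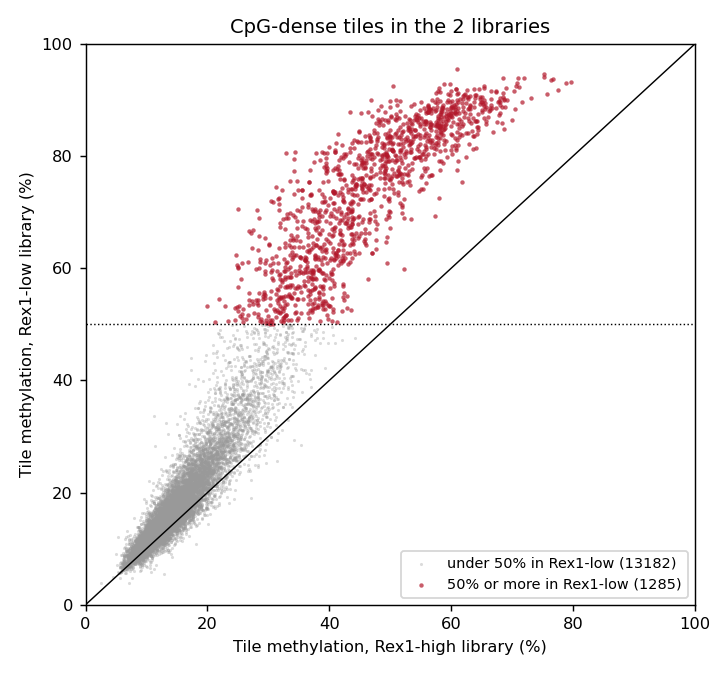
Mean methylation (%) of each CpG-dense tile in the *Rex1*-high library (x axis) and the *Rex1*-low library (y axis), with 1285 members in red and 13182 other dense tiles in grey; the solid line marks equal levels and the dotted line the limit of 50%. All members lie above the solid line, and reach 79.7% in the *Rex1*-high library.

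Members can be set beside the 133301 methylated tiles of lower density, those with 3 to 19 CpGs and at least 50% in the *Rex1*-low library. Their medians were 60.2% in *Rex1*-high and 87.2% in *Rex1*-low cells, so members were lower in both. The median difference was 25.5 points in them and 26.9 points in the members. The level in *Rex1*-high cells divided by that in *Rex1*-low cells had a median of 0.633 in members, 0.7003 in methylated tiles of lower density and 0.869 in the other dense tiles. Both sets were chosen on their *Rex1*-low level, so these values are set side by side only. Tiles were also chosen on every other CpG and measured on the CpGs in between, which lie on the same fragments of the same libraries and so largely repeat the values that chose the tiles. Of 1612 tiles chosen in this way, 1475 were at 50% or above on the CpGs in between and 1611 were higher in the *Rex1*-low library, with medians there of 44.98% and 74.6%.

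The limits of the rule cut through a continuum. Just inside 50% were tiles at 79802501 to 79805000 of chromosome 10, at 50.03% in the *Rex1*-low and 30.2% in the *Rex1*-high library, and at 96722501 to 96725000 of chromosome 11, at 50.08% and 30.7%. Just outside it were tiles at 34275001 to 34277500 and at 32170001 to 32172500 of chromosome 17, at 49.998% and 49.98% in the *Rex1*-low library, which were at 32.9% and 24.7% in the *Rex1*-high library. Distances to placed starts, here and below, are from the midpoint between the first and last measured CpG of a tile. The placed start of *Hsf2bp*, a gene of meiotic recombination, lay inside the second of these, 0.199 kb from that point. Of tiles with exactly 20 CpGs, 222 of 579 (38.3%) were at 50% or above in the *Rex1*-low library. Of those with 19, just outside the rule, 274 of 657 (41.7%) were, with a median of 51.2% in the *Rex1*-high library.

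Among tiles with at least 100 calls in each library, the largest difference was at 85030001 to 85032500 of chromosome 11, over 20 CpGs. This tile was 32.9% methylated in *Rex1*-high and 80.5% in *Rex1*-low cells. Its pooled calls were 118 methylated of 353 (95% Wilson interval 28.7% to 38.5%) and 433 of 537 (77.1% to 83.8%), and the nearest placed start, that of *Appbp2*, was 17.8 kb away, with the tile downstream of it. The next was at 48572501 to 48575000 of chromosome 4, at 34.4% and 80.8% over 32 CpGs, downstream of *Msantd3* by 20.5 kb. Pooled calls gave 37.8% and 75.4% for it, a difference of 37.6 points. Tiles at 67560001 to 67562500 of chromosome 10 and at 74985001 to 74987500 of chromosome 8 differed by 45.6 and 45.2 points, from 24.99% to 70.5% and from 34.2% to 79.4%. The fifth, at 46110001 to 46112500 of chromosome 8, was at 43.4% and 87.8% and belonged to a group of 4 members within 42.5 kb, with *Mtnr1a*, which encodes a melatonin receptor, as the placed gene nearby. Intervals cover counting error only, since PCR reads without molecular identifiers are not independent molecules. Their median half-width over members was 3.51 points in the *Rex1*-high and 3.01 points in the *Rex1*-low library. These tiles were picked for the size of their difference, so setting it against the intervals is no test.

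The smallest difference between means over CpGs was at 97197501 to 97200000 of chromosome 11, from 52.3% to 59.9%, or 7.65 points over 22 CpGs. Its pooled calls, in which deeper CpGs count for more, gave 52.7% (365 of 692, interval 49.02% to 56.4%) and 65.3% (392 of 600, 61.4% to 69.0%). Their difference of 12.6 points was over 1.5 times that of the means, and the mean of 59.9% lay outside the pooled interval. Tiles at 57040001 to 57042500 of chromosome 1 and at 31900001 to 31902500 of chromosome 7 followed, with 9.08 and 9.18 points. The next, at 88150001 to 88152500 of chromosome 6, was at 42.9% and 52.9%, and lay 2.58 kb downstream of the placed start of *Gata2*, a transcription factor of blood stem cells. The tile with the fifth smallest difference held the start of *Miip* and is taken up with the promoters below. These tiles were between 50.5% and 59.9% in the *Rex1*-low library, whereas the tiles with the largest differences reached 70.5% or more.

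Members had few CpGs for dense tiles. They had a median of 23 CpGs and 797 (62.0%) had 20 to 24, whereas the other dense tiles had a median of 42 and 13.4% of them had 20 to 24. Their CpGs were also further apart, with a median spacing of 19 bp within a tile against 8.50 bp, and spread over a median of 1588 bp against 1131 bp. Within members, more CpGs went with a lower level. The 57 members with at least 40 CpGs had medians of 40.0% in *Rex1*-high and 65.9% in *Rex1*-low cells, and the members with 20 to 24 CpGs had medians of 46.6% and 76.6%. The median difference was 26.1 points in the first and 27.1 points in the second. The member with the most CpGs was at 80615001 to 80617500 of chromosome 10, with 87 CpGs, 28.2% methylation in the *Rex1*-high and 53.8% in the *Rex1*-low library. Those next in number were at 79775001 to 79777500 of chromosome 10, with 68 CpGs at 37.3% and 59.7%, at 78502501 to 78505000 of chromosome 15, with 66 at 51.4% and 77.5%, and at 53047501 to 53050000 of chromosome 7, with 65 at 40.2% and 59.0%. The counts are of CpGs measured in both libraries and not of all CpGs of the sequence.

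Single CpGs showed what lay behind these means. The members held 32532 CpGs, of which 92.1% had a higher level in *Rex1*-low cells and 5.82% a lower one, against 38.8% and 22.2% in the other dense tiles. Both sets were divided on the *Rex1*-low level, so nothing is read from this contrast. In the other dense tiles 76.0% of CpGs were at 20% or below in *Rex1*-low and 77.7% in *Rex1*-high cells. Within members, CpGs at 80% or above made up 50.4% in *Rex1*-low and 8.80% in *Rex1*-high cells. CpGs at 20% or below made up 4.77% and 20.2%. Of the 6582 CpGs of members at 20% or below in *Rex1*-high cells, 503 (7.64%) were at 80% or above in *Rex1*-low cells. Another 1391 (21.1%) were at 20% or below there too, so most were at levels between in the *Rex1*-low library. In 256 members every CpG was higher in the *Rex1*-low library.

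Within a member, CpGs were less alike in the *Rex1*-high library. The SD of CpG levels within a member had a median of 23.2 points in the *Rex1*-high and 18.9 points in the *Rex1*-low library. In the other dense tiles the order was the reverse, with medians of 24.1 and 26.7 points. Members were chosen for a high *Rex1*-low mean, which bounds the spread there, so nothing is read from this about the states. Each tile was then put into 1 of 4 classes by its CpGs. In *Rex1*-low cells 215 members (16.7%) were high throughout, with at least 80% of CpGs at 80% or above, whereas in *Rex1*-high cells 0 of 1285 were. Tiles that were intermediate throughout, with at least 80% of CpGs between 20% and 80%, numbered 68 (5.29%) in *Rex1*-low and 453 (35.3%) in *Rex1*-high cells. Mixed tiles, in which both CpGs at 20% or below and CpGs at 80% or above made up at least 20%, numbered 69 (5.37%) and 3. The remaining 933 and 829 tiles held a graded range of levels. All 69 tiles that were mixed in *Rex1*-low cells were graded in *Rex1*-high cells, with medians of 34.7% there and 54.1% in *Rex1*-low cells. Tiles that were high throughout had medians of 60.7% and 88.8%.

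**Figure D2:**
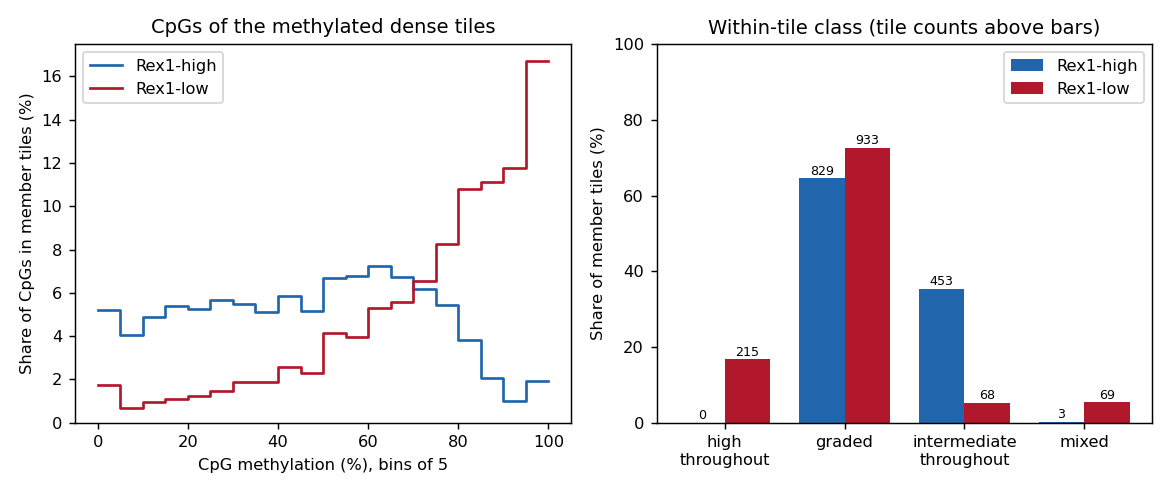
Left, share of the 32532 CpGs of member tiles (y axis, %) in bins of 5 points of methylation (x axis, %) for each library. Right, share of the 1285 members in each within-tile class, with tile counts above the bars; 453 tiles were intermediate throughout in *Rex1*-high and 68 in *Rex1*-low cells.

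The order of CpGs was shared between the libraries to a degree. Spearman's rho between the levels of the CpGs of a tile in both libraries had a median of 0.643 over members, as a description over CpGs that share fragments and depth. It was 0.676 over the other dense tiles, so this is no trait of members. The part of CpGs in enzyme sites in this order was not tested. In members, neighbouring CpGs were more alike than others in the tile. They differed by a mean of 16.9 points in the median *Rex1*-low tile against 20.2 points for all pairs, and by 23.0 against 26.5 points in the *Rex1*-high library. In the other dense tiles these values were 19.6 against 24.1 points and 18.1 against 21.5 points. Each member was also split at the point that gave the widest gap between both sides in the *Rex1*-low library, with at least 5 CpGs a side. This step had a median of 16.9 points in *Rex1*-low cells, where it was sought. Read at the same point in the *Rex1*-high library, which was not used to place it, the median step was 14.2 points, with quartiles of 5.26 and 23.4. In the other dense tiles the median steps were wider, at 24.1 points in the *Rex1*-low and 18.5 points in the *Rex1*-high library. In the 69 members that were mixed in *Rex1*-low cells the median steps were 53.8 points in the *Rex1*-low and 30.7 points in the *Rex1*-high library.

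The widest step was at 77362501 to 77365000 of chromosome 10, 1.31 kb downstream of the placed start of *Lrrc3*. The sides differed by 86.8 points in *Rex1*-low and 57.6 points in *Rex1*-high cells, with the break at position 77364869. Tiles at 4712501 to 4715000 of chromosome 19 and at 134732501 to 134735000 of chromosome 7 had steps of 77.8 and 76.8 points in *Rex1*-low cells and of 50.2 and 40.2 points in *Rex1*-high cells. The tile of chromosome 19 differed between libraries by 20.3 points in its means and by 12.04 points in pooled calls. The tile of chromosome 7 lay 1.26 kb downstream of the start of *Rnf40*, which encodes a ubiquitin ligase for histone H2B. In the first of these, a methylated and an unmethylated stretch shared 2500 bp in both libraries.

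The most even members were the opposite. At 5057501 to 5060000 of chromosome 12 the SD over 31 CpGs was 4.91 points around 93.6% in *Rex1*-low cells and 9.19 points around 76.4% in *Rex1*-high cells. Tiles at 42250001 to 42252500 of chromosome 13 and at 117212501 to 117215000 of chromosome 11 followed, with SDs of 5.01 and 5.32 points in *Rex1*-low and 14.1 and 18.8 points in *Rex1*-high cells. All 3 were high throughout in *Rex1*-low cells and none was in *Rex1*-high cells.

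**Figure D3:**
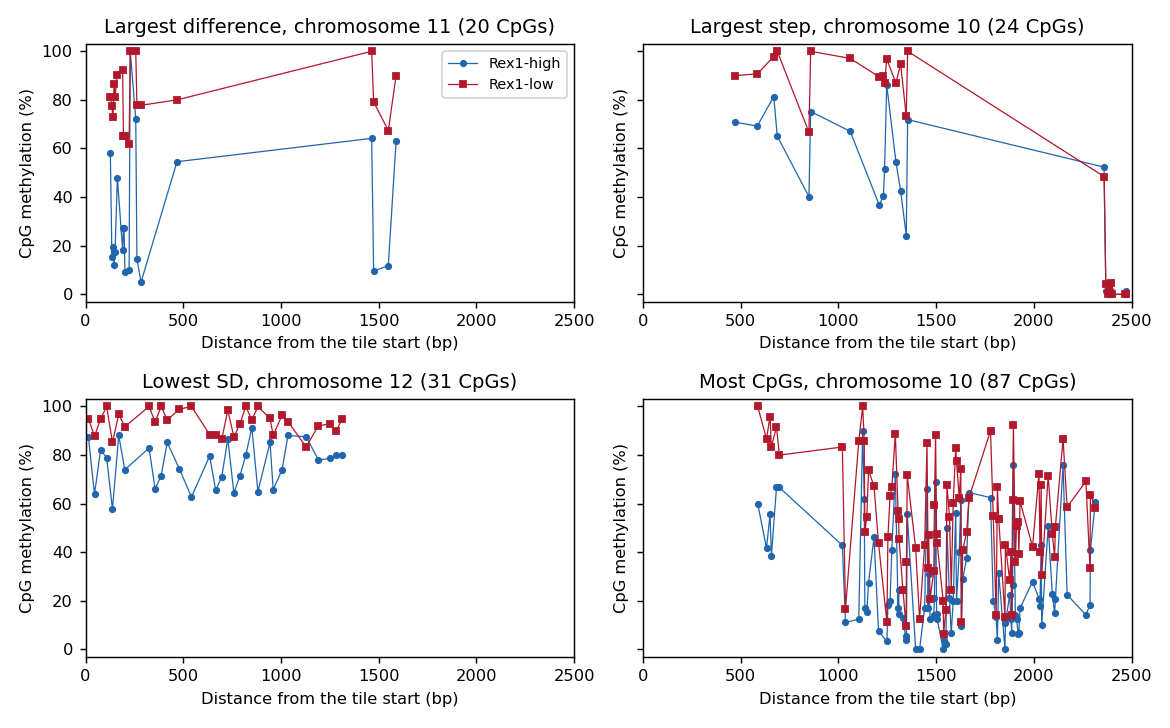
Methylation (%, y axis) of each CpG along 4 members (x axis, distance in bp from the tile start), in blue for *Rex1*-high and red for *Rex1*-low; lines only join neighbouring CpGs. The tile with the widest step falls to near 0% in both libraries at its end, and the tile with the lowest SD is high along its length.

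Members lay scattered over all 19 autosomes. Their share of dense tiles ran from 4.65% on chromosome 6 (31 of 666) to 12.9% on chromosome 5 (137 of 1065), with 12.1% on chromosome 10 and 11.5% on chromosomes 4 and 8. The median difference by chromosome ran from 23.7 points on chromosome 13 to 28.2 points on chromosome 17. Of all members, 32.7% had another member within 50 kb, against 73.2% of dense tiles with another dense tile within 50 kb, of which there are more. When the nearest dense tile lay within 50 kb, it was a member for 256 of 1009 members (25.4%) and for 772 of 9575 other dense tiles (8.06%). Members thus had members as dense neighbours more often than other tiles did, although most of their dense neighbours were not members. Directly adjacent members occurred in 59 pairs. The flanking tiles, where measured, had a mean level of 50% or above in *Rex1*-low cells for 84.6% of members and for 45.9% of other dense tiles. Such levels were common, since 133301 of the 158677 autosomal tiles had 3 to 19 CpGs and were at 50% or above. The share for members is therefore not read as a trait of their surroundings.

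Chains of members no more than 50 kb apart numbered 174 with 2 or more tiles and 16 with 4 or more. The longest had 7 of the 10 dense tiles between 115900001 and 116005000 of chromosome 5, where the placed genes within 25 kb were *Gm42007*, *Rplp0*, which encodes a ribosomal stalk protein, and *Gcn1*, a regulator of the amino acid starvation response. Its members ran from 38.8% to 51.6% in *Rex1*-high and from 53.4% to 78.2% in *Rex1*-low cells. Chromosome 10 held the next 3. Between 79280001 and 79395000, with *Palm*, *Ptbp1*, *R3hdm4* and *Kiss1r* among the placed genes, 6 of 13 dense tiles were members, with medians of 41.6% and 73.5%. *Ptbp1* encodes a splicing repressor and *Kiss1r* the kisspeptin receptor. Between 79772501 and 79875000, with *Rps15*, *Apc2*, *Plk5*, *Uqcr11* and *Tcf3* among the placed genes, 5 of 13 were members, with medians of 35.4% and 59.7%. Between 126955001 and 127032500, near *Shmt2*, a mitochondrial enzyme of one-carbon metabolism, 5 of 7 were members, with medians of 49.9% and 88.1%. The 20 dense tiles in these chains that were not members had *Rex1*-low levels from 7.67% to 33.0%, well under the members between them. Placed starts lay inside 6 of these 20 tiles and inside 0 of the 23 members. Over the 18 autosomes with placed promoters they lay in 48.3% of other dense tiles and 2.14% of members. These counts are thus not read as a trait of the chains.

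**Figure D4:**
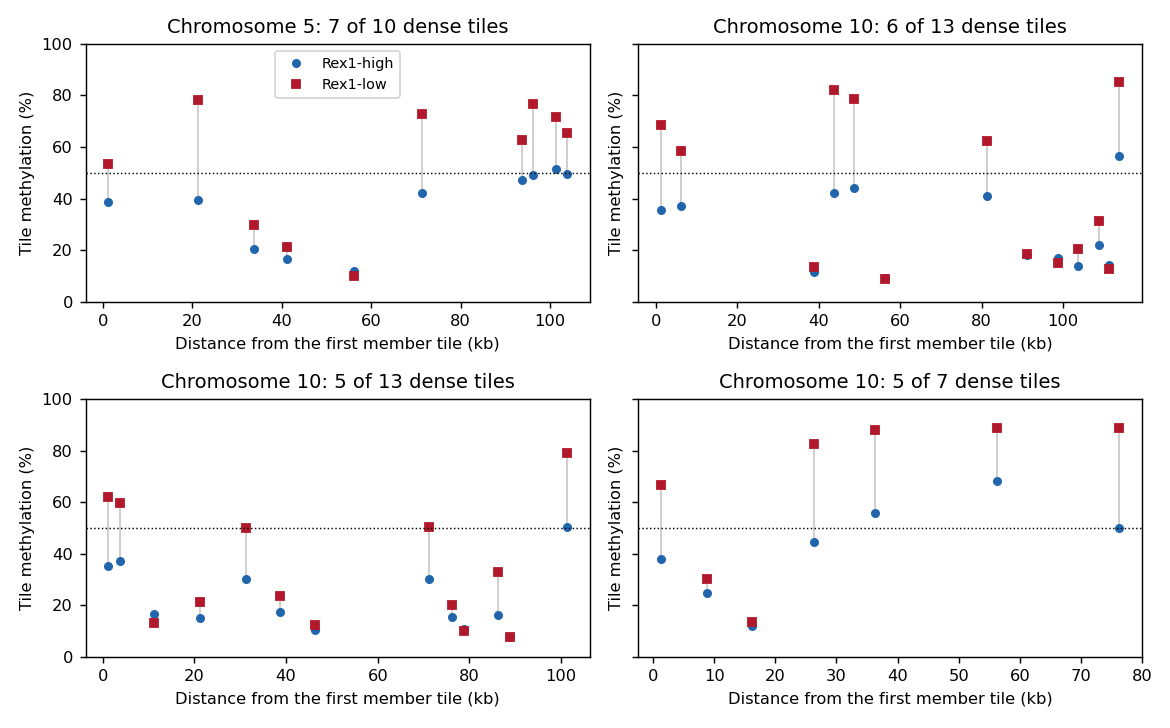
Methylation (%, y axis) of every dense tile in the 4 chains with the most members, by distance in kb from the first member (x axis), in blue for *Rex1*-high and red for *Rex1*-low, with a grey line joining both values of a tile and a dotted line at 50%. Members above the line alternate with dense tiles whose *Rex1*-low levels were 33.0% or less.

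Placed starts were rare in members. Promoters of chromosome 18 were not analysed here. On the other 18 autosomes placed starts lay in 27 of 1262 members (2.14%, 95% Wilson interval 1.47% to 3.09%) and in 6185 of 12798 other dense tiles (48.3%). Since a placement needs 10 listed CpGs within a promoter window, this was also compared at like CpG number of the tile. In tiles with 20 to 24 CpGs the shares were 2.17% and 28.6%, with 25 to 39 CpGs 1.90% and 39.6%, and with 40 or more 3.51% and 58.3%. Like CpG number did not make the spacing alike. With 20 to 24 CpGs the median spacing was 20 bp in members and 12 bp in other dense tiles. With 25 to 39 CpGs it was 18 bp and 10 bp. Wider spacing leaves fewer CpGs in a window, so these shares cannot tell fewer promoters in members from fewer that could be placed. The share of members with a placed start is a lower bound for promoters in members, because sparser or uncovered promoters cannot be placed. The nearest placed start was a median of 33147.5 bp from the midpoint of a member and 902.5 bp from that of another dense tile. It was as far as 18896587 bp from a member and 23047264 bp from another dense tile. Long stretches of these 18 autosomes thus had no placed start, and their tiles remain in the shares and medians given here. Of members without a placed promoter, 64.2% lay downstream of the nearest placed start, against 57.9% of the other dense tiles without one.

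The 27 genes whose starts did lie in members were all examined, a rule chosen after values had been seen. Their promoter windows of 300 bases had a median of 28.6% in *Rex1*-high and 54.4% in *Rex1*-low cells, and the rest of their tiles 44.8% and 70.1%. The window was lower than the rest of the tile for 24 of 27 genes in *Rex1*-high and for 23 in *Rex1*-low cells. At 16 genes the window reached 50% in *Rex1*-low cells, and at 2 of them, *Taf1c* and *Gm16059*, in *Rex1*-high cells. At 18 genes the window was at least 20 points higher in *Rex1*-low cells. These levels include CpGs inside the sites of MspI and TaqI. Without those CpGs 11 windows reached 50% in *Rex1*-low cells. Those of *Hormad1* (39.9%), *Vmn2r29* (40.4%), *Gm15455* (46.8%), *Gm40010* (48.9%) and *1700020D05Rik* (21.4%, with 1 CpG left) did not. In *Rex1*-high cells 1 did, that of *Gm16059*, with *Taf1c* at 48.8%. The number at least 20 points higher was 18 without them as well. Windows of the 6852 other genes placed in dense tiles had medians of 10.6% and 11.3%, and 6 of these windows were at 50% or above in *Rex1*-low cells.

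*Tex101*, which encodes a surface protein of germ cells, had the highest *Rex1*-low window, at 46.3% in *Rex1*-high and 82.1% in *Rex1*-low cells over 16 CpGs. Without the CpGs in enzyme sites it was at 37.3% and 79.3%, and that of *Gm16059*, at 82.7% in *Rex1*-low cells over 4 CpGs, was higher. In the 250 bases printed for it, all 12 measured CpGs were higher in *Rex1*-low cells, and 9 of them were at 80% or above there. *Rpl39l*, a ribosomal protein gene used in testis, went from 28.6% to 63.8%. In its printed promoter 8 of 11 measured CpGs were at 20% or below in *Rex1*-high cells and 0 were in *Rex1*-low cells. *Fkbp6*, a co-chaperone needed in male meiosis, was at 42.0% and 63.3%. *Spaca1*, which encodes a protein of the sperm acrosome, was at 40.4% and 61.7%.

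*Slc25a31*, the ADP/ATP carrier of male germ cells, had 24.7% in *Rex1*-high and 54.4% in *Rex1*-low cells. Its 14 measured CpGs in the printed sequence ranged from 0% to 75.7% in *Rex1*-high and from 26.3% to 88.5% in *Rex1*-low cells, and 13 were higher in the latter. *Hormad1*, a protein of the meiotic chromosome axis, was at 26.5% and 50.7%, with 17 of 18 printed CpGs higher in *Rex1*-low cells. *Sohlh2*, a transcription factor of early germ cells, was at 16.6% and 40.0% while the rest of its tile was at 38.8% and 72.9%. *Rnf212b*, a RING protein of meiotic recombination, was at 13.3% and 39.5%, against 41.6% and 69.6% in the rest of its tile. Without CpGs in enzyme sites, the *Rex1*-low windows of *Sohlh2* and *Rnf212b* were at 32.7% and 34.5%. The promoters of both were thus well under the rest of their tiles. No list of germ cell genes was tested, so these are descriptions of single genes.

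*Taf1c*, a subunit of the RNA polymerase I initiation factor, was at 56.4% and 79.8%, and *Lhcgr*, the receptor for luteinizing hormone, at 42.8% and 65.2%. *Vmn2r29*, a vomeronasal receptor gene, was at 22.9% and 50.4%. The windows of *Gm36794*, *C230014O12Rik*, *Gm34222* and *Gm15455*, for which only such names are given, reached 80.8%, 74.8%, 59.3% and 56.0% in *Rex1*-low cells.

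At some starts the promoter did not share the level of its tile. *Akap7*, which anchors protein kinase A, had 14.4% in *Rex1*-high and 11.9% in *Rex1*-low cells in its window and 42.9% and 68.2% in the rest of the tile. Within the tile, the 5 window CpGs outside enzyme sites were at 3.62% and 8.03%, so they did not share the fall. The window crosses into the next tile, where its 2 CpGs, those of the printed sequence, had 10 *Rex1*-low calls each. The first, within CCGG, was at 46.2% in *Rex1*-high and 10% in *Rex1*-low cells. The second, outside the enzyme sites, was at 0% in both. *Trim56*, an antiviral ubiquitin ligase, was at 35.7% and 22.7% over 4 CpGs, against 39.6% and 62.0% in the rest. Of these 4 CpGs, the 2 within CCGG were at 61.6% and 35.9% and the other 2 at 9.76% and 9.55%, so the fall lay in the CpGs of the enzyme site. *Miip* was at 28.2% and 32.2%, *D130017N08Rik* at 28.6% and 31.8%, and *Gm52563* at 14.3% and 27.4%. *Cspg4*, which encodes the proteoglycan NG2, was at 24.2% and 36.2%. In these 6 tiles the rest of the tile was at 58.1% or more in *Rex1*-low cells.

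**Figure D5:**
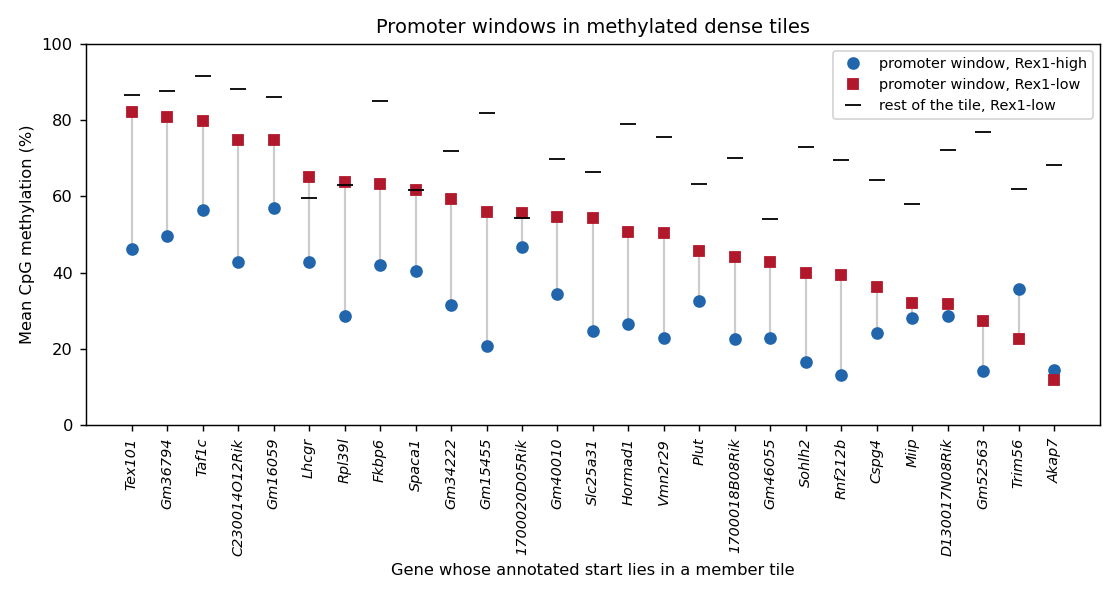
Mean CpG methylation (%, y axis) of the promoter window of the 27 genes with a placed start in a member (x axis, ordered by the *Rex1*-low window), in blue for *Rex1*-high and red for *Rex1*-low; black dashes give the rest of the tile in *Rex1*-low cells. The windows run from 82.1% for *Tex101* to 11.9% for *Akap7* in *Rex1*-low cells, and the dash lies above the red square for 23 genes.

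In the promoters, CpGs inside the enzyme sites stood above their neighbours, and levels that include them may stand too high. In placed promoters of members, 61 measured CpGs within CCGG, the letters MspI cuts, had medians of 64.3% in *Rex1*-high and 76.3% in *Rex1*-low cells. The 17 CpGs within TCGA, which TaqI cuts, had 63.9% and 77.8%. The other 246 CpGs had 16.7% and 45% in turn. A like gap was present where dense tiles were not members. There 20213 CpGs within CCGG had medians of 52.9% and 54.5%, and 101540 CpGs with neither set of letters 0% in both libraries. A CpG can have 2 lines in the deposited values, and in these promoters outside members the lines of 38.96% of CpGs within CCGG disagreed in the *Rex1*-high library, with a level of at least 80% in one and at most 20% in the other, against 0.0236% of the other CpGs. Over all CpGs of members that share was 3.93% in *Rex1*-high and 1.23% in *Rex1*-low cells, and over the other dense tiles 8.78% and 7.12%. The part of enzyme-site CpGs in the tile levels was not tested beyond the promoters, since the letters are known only there. Leaving out CpGs whose lines disagreed in either library, in all tiles, gave 1051 members. Their median was 47.2% in *Rex1*-high cells, with a median difference of 27.5 points. This takes out only some of the CpGs in enzyme sites, since the lines of many did not disagree. Without CpGs in either set of letters, the 27 windows had medians of 18.9% in *Rex1*-high and 40.4% in *Rex1*-low cells, and a median difference of 27.7 points.

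Depth was alike in both libraries for most members. The median member was covered by 735 *Rex1*-high and 680 *Rex1*-low calls, which is 31.0 and 28.2 calls per CpG. Other dense tiles had 32.4 and 41.9 calls per CpG. More than 5000 calls in either library were found in 4 members. Of these, adjacent tiles at 98502501 to 98507500 of chromosome 2 held 84195 and 169699 calls in the *Rex1*-high library, with levels of 56.7% and 58.7% there and of 76.6% and 78.7% in the *Rex1*-low library.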

How the data were processed

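The authors processed RRBS reads of 1 *Rex1*-high and 1 *Rex1*-low library with Bismark and Galaxy. The submitters' processing notes name Bismark 0.7 and mm9. The deposited values are methylated calls over all calls per line, with 1 or 2 lines per CpG, and a deposited score made from their ratio, which was not used. Lines of 1 call are present, so the study's minimum of 5 reads per CpG was applied here, to each line.

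The fractions of the lines of a CpG were averaged, and CpGs kept in both libraries were used. Tiles of 2500 bp were averaged over CpGs without weights. Intervals of levels are 95% Wilson intervals of pooled calls, and those of shares of tiles are 95% Wilson intervals over tile counts. Tiles are not independent draws, so the latter measure no spread between cells or libraries. The members, the classes and the lists were chosen with earlier results of these data known. Individual tiles were, among members with at least 100 calls in each library, the 5 with the largest and the 5 with the smallest difference, the 4 with the most CpGs, the 3 with the widest step, the 3 with the lowest SD, and the 4 chains with the most members. The 2 tiles just inside and the 2 just outside the limit of 50% were given without the minimum of calls. The design had left genes and sequence out unless a genome of the build was at hand, and none was. Placing RefSeq promoters by the spacing of their CpGs, and the letters around CpGs, departed from it and were added after the data had been seen. Scripts were tested on simulated data. Python 3.11.15, NumPy 2.4.6, pandas 2.3.3, numba 0.67.0 and matplotlib 3.10.9 were used.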

Additional observations from a re-analysis of the deposited data

Results flagged for a closer look

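Chromosome X lies outside the rule, which takes autosomes, and 19 of its 324 CpG-dense tiles (5.86%, 95% Wilson interval 3.79% to 8.98%) would have met it. They had medians of 49.2% in *Rex1*-high and 76.6% in *Rex1*-low cells, with differences from 19.3 to 37.7 points and 12274 and 9733 calls in all. They are mentioned because they are data that the comparisons leave out.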

How the results depend on the processing

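Of 118 values recomputed for 8 results under 21 alternatives, 76 stayed within a tolerance, 42 moved past it and 0 reversed. Reversed means a change of sign, which counts, shares and levels cannot show. The difference is taken in tiles chosen on 1 side of it, so nothing is read from the 0. Counts were allowed a factor of 1.5, shares their Wilson interval and levels 3.51 points. Without tiles over 5000 calls, and with promoter matches at 8 or 14 CpGs, were added after seeing the data, as were the promoter windows without enzyme-site CpGs and the pooled levels of single tiles given above. The number of members (1285) was 576 at 10 calls per line, 2349 at 1 call, 3745 at 15 or more CpGs, 57 at 40 or more and 784 at a level of 70%, and those at least 10 points higher were 576, 2307, 3727, 57 and 784. The median *Rex1*-high level was 49.7% at 15 CpGs, 40.0% at 40 CpGs, 41.0% at a level of 40% and 52.7% at a level of 70%. The median difference was 31.2 points with the median over CpGs. The share with another member within 50 kb was 24.8% at 10 calls, 42.7% at 1 call, 36.3% with lines pooled first, 29.7% without CpGs whose lines disagree, 50.1% at 15 CpGs, 21.1% at 40 CpGs, 37.1% and 26.5% at levels of 40% and 70%, and 36.4% with members chosen on every other CpG. It was 17.0% for a gap of 10 kb and 61.3% for 250 kb. The share of mixed tiles was 8.85% at 10 calls, 8.64% with the median over CpGs, 12.7% at a level of 40%, 0% at 70%, 6.89% with shifted tiles, 7.76% with thinned calls, 7.57% with every other CpG and 12.8% with limits of 30% and 70%. The step in the *Rex1*-high library was 19.6 points at 40 CpGs and 9.65 points at a level of 70%. The share with a placed start was 1.39% at 1 call, 1.07% at 15 CpGs, 3.51% at 40 CpGs, 4.40% and 0.778% at levels of 40% and 70%, and 1.03% with matches of 14 CpGs. No paired analysis was possible because each state has 1 library. Depth limits single CpGs, with medians of 31.0 and 28.2 calls per CpG in members.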

Other observations

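A pair of short motifs was searched for in the 250 bases before the start, on both strands. CACGTG, the E-box of basic helix-loop-helix factors, was in 4 of the 27 promoters placed in members (14.8%), those of *Akap7*, *Slc25a31*, *Hormad1* and *Fkbp6*. It was in 6.02% of 31396 autosomal promoters and in 9.27% of the 8968 placed ones. TCCCGC, the core of E2F sites, was also in 4 (14.8%), those of *Hormad1*, *Spaca1*, *D130017N08Rik* and *1700018B08Rik*, against 17.1% of all and 39.1% of placed promoters. Matches of both motifs can share no more than an end letter, and a match is not a site. Besides the deeply covered pair on chromosome 2, a member at 44965001 to 44967500 of chromosome 13 had 1560 calls in the *Rex1*-high and 5439 in the *Rex1*-low library, and another at 61962501 to 61965000 of chromosome 3 had 7370 and 914.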
